A study of Canis lupus familiaris with 33 samples.

Results

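The genes described here are the multi-exon genes that start between 5 and 9 Mb of dog chromosome 26, a stretch that corresponds to part of human 12q24. They were chosen by position alone: a gene entered if its lowest exon start lay from 5000000 to 9000000, it had at least 2 distinct merged exons, and it spanned under 500 kb. Of the 30951 genes in the count table, 86 started in this stretch and 72 entered. The other 14 had 1 exon, and 0 were left out for their span. Positions are those of the CanFam3.1 assembly with Ensembl release 100 gene models. The genes are numbered below from member 1, the first by start at 5003188, to member 72, which starts at 8730435. The nearest multi-exon genes outside start at 4964088 and 9005281.

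Oligodendroglioma is a glioma, a brain tumour whose cells resemble oligodendrocytes, the cells that wrap axons in myelin. In dogs it is seen mostly in short-nosed breeds such as the Boxer and the French Bulldog, and mapping studies in such breeds placed a glioma susceptibility locus on chromosome 26. Candidate genes reported there are CAMKK2, a calcium-activated kinase upstream of the energy sensor AMPK, P2RX7, a cation channel opened by extracellular ATP, and DENR, a factor in translation reinitiation. A RefSeq gene table of another assembly (UU_Cfam_GSD_1.0) placed all 3 symbols on chromosome 26. The deposited counts carry Ensembl identifiers without names, and 0 of the 30951 identifiers matched that table. No member is therefore assigned to a gene symbol, the role of each member in the cell is not given, and the labelled tissues could not be checked against cell type markers.

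RNA sequencing of 33 brain samples compared oligodendroglioma with brain labelled as healthy, in formalin-fixed paraffin-embedded (FFPE) blocks and in fresh-frozen tissue, all taken at necropsy 1 to 18 hours after death. The 11 FFPE tumours came from 4 Boxers, 6 French Bulldogs and 1 Pomerian, with 9 tumours of grade III and 2 of grade II, and the stated ages were 4.7 to 12 years. The 10 FFPE controls came from 4 Boxers, 5 French Bulldogs and 1 Bolonka Swetna, with stated ages of 2 to 8 years. The 6 fresh-frozen tumours came from 3 French Bulldogs, 1 Boxer, 1 Pomerian and 1 Border Terrier (5 of grade III, 1 of grade II, stated ages 4.7 to 10 years). The 6 fresh-frozen controls came from 2 French Bulldogs, 1 Bolonka Swetna, 1 Hovawart, 1 Mongrel and 1 Berner sennenhund, aged 2.8 to 10.2 years where stated. No treatment or engineered allele is named for any group. Tumour dogs 60127, 60461, 60636, 60679 and 60749 and control dogs 60126, 60460 and 60462 were sampled in both ways, so the FFPE and fresh-frozen comparisons share 8 dogs.

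Total counts per library were 1752162 to 12501029 in FFPE tumours and 406406 (dog 50315) to 32584840 (dog 60126) in FFPE controls. Fresh-frozen tumours had 9765907 to 25168080 counts, and fresh-frozen controls 15255966 to 26726025. The fresh-frozen libraries therefore measured low members with less counting error than nearly all FFPE libraries. Counting noise alone did not account for the difference between any 2 libraries of a group (chi-square per degree of freedom of at least 17.2), so no library was treated as a repeat of another.

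The members are compact genes of ordinary structure. They have 2 to 64 exons (median 10) and 240 to 8207 exonic bases (median 1784), and they span 0.6 to 262.8 kb. There are 35 on the plus strand and 37 on the minus strand. By start, 13 lie from 5 to 6 Mb, 22 from 6 to 7 Mb, 20 from 7 to 8 Mb and 17 from 8 to 9 Mb. Only 2 members share exon bases on the same strand (members 65 and 66), and 10 share exon bases with a gene on the opposite strand, which the strand-specific counting kept apart.

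Most of the stretch was expressed in brain. Counts were found in all 33 libraries for 52 of the 72 members, and 0 members lacked counts altogether. The level of a gene is given as CPM (the count scaled to library size) per kb of exon, the scale on which genes of different length can be compared. In fresh-frozen controls the mean level was under 1 for 13 members, 1 to 10 for 20, 10 to 50 for 31, and 50 or more for 8. In fresh-frozen tumours the same classes held 12, 25, 29 and 6 members.

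**Figure D1:**
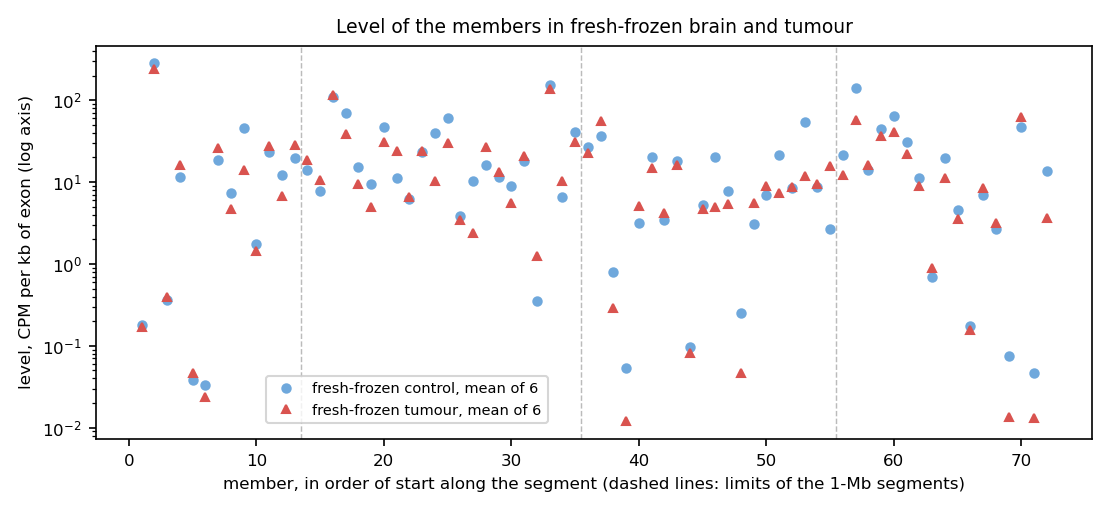
Level of the 72 members in fresh-frozen tissue, in CPM per kb of exon on a log axis, by gene order along the stretch. Points are means of the 6 controls (circles) or 6 tumours (triangles), and dashed lines mark the limits of the 1-Mb segments. Members 2 and 33 sit high in both tissues, while member 57 is high in controls and lower in tumours.

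The highest level per kb over all libraries belonged to member 2 (5007356 to 5008501, 2 exons), followed by member 33 (6867974 to 6888431, 10 exons) and member 57 (8148236 to 8209388, 25 exons). Member 2 had 282 ± 87.6 CPM per kb (SD, n = 6) in fresh-frozen controls and 242 ± 42.6 (n = 6) in fresh-frozen tumours. Its log2 fold change, tumour over control, was -0.08 ± 0.22 (SE, adjusted p = 0.803) in fresh-frozen and -0.14 ± 0.27 (adjusted p = 0.738) in FFPE tissue, so it passed the test in neither. Member 33 was at 155 ± 98.9 CPM per kb in fresh-frozen controls and 139 ± 61.3 in tumours, again with no call (adjusted p = 0.983, and 0.741 in FFPE). Its highest fresh-frozen libraries were controls 60462 and 60126 and tumours 60127 and 60461, at 8.91, 8.73, 8.66 and 8.03 log2 CPM. The next stood at 7.60 (tumour 60749). Those dogs also have the deepest fresh-frozen libraries, and the part of depth in this spread was not tested. The top 2 genes of the stretch thus stood at levels that tumour and control libraries shared, while the third differed between them, as described below. In counts, member 57 alone gave 14.9% of the 1190506 counts of all members, and the top 5 gave 41.9%.

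Tumour and control were compared with edgeR's quasi-likelihood test on all genes, with Benjamini-Hochberg adjustment over all genes tested and a threshold of 0.05. In FFPE tissue 59 members had enough counts to test. Of these, 4 were higher and 7 lower in tumours (18.6%), against 21.1% of all 13338 genes tested (10.1% higher and 11.1% lower). In fresh-frozen tissue 62 members were tested, and 7 were higher and 13 lower (32.3%), against 30.5% of all 15057 genes (18.3% higher, 12.2% lower). With both directions summed, the share of members called was near the background in both kinds of tissue. By direction, the fresh-frozen shares differed from it, with 11.3% of members higher and 21% lower, a difference that was not tested. The median log2 fold change of the tested members was -0.04 in FFPE and -0.04 in fresh-frozen tissue, beside 0.02 and 0.10 for all genes. Since whole tissue was sequenced, fewer cells of a type and less RNA per cell cannot be told apart in any of these differences.

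The calls were spread along the stretch. In fresh-frozen tissue 0 members were higher and 2 lower from 5 to 6 Mb (9 tested). The next segment, 6 to 7 Mb, held 5 higher and 4 lower of 22. From 7 to 8 Mb 2 were higher and 3 lower of 17, and from 8 to 9 Mb 0 were higher and 4 lower of 14. Neighbouring parts of the chromosome gave similar shares: 7 higher and 5 lower of 32 genes before 5 Mb (37.5%), and 33 higher and 41 lower of 244 beyond 9 Mb (30.3%).

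**Figure D2:**
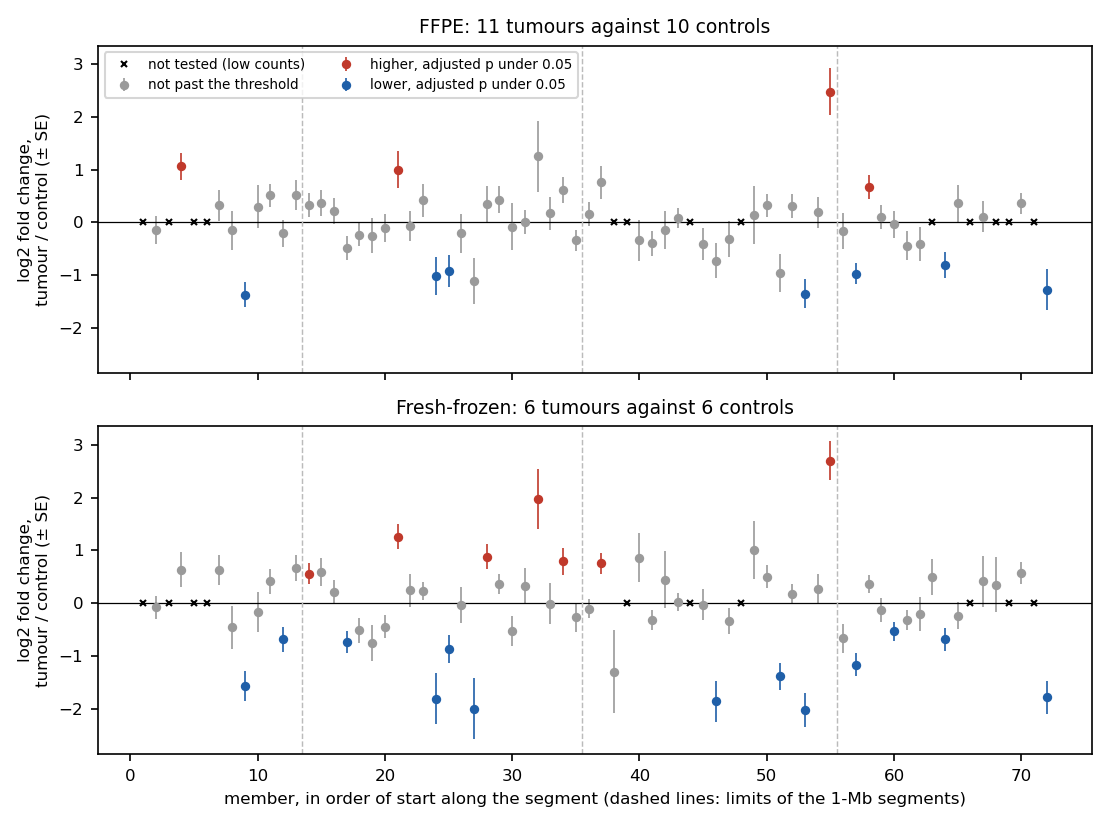
Log2 fold change of each member, tumour over control (points, with SE as bars), in FFPE tissue (upper panel, 11 tumours and 10 controls) and fresh-frozen tissue (lower panel, 6 and 6), by gene order along the stretch. Coloured points passed an adjusted p of 0.05 and crosses mark members with too few counts to test; higher and lower members lie side by side in every segment except the first and last of the fresh-frozen panel, which hold lower calls only.

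Of the 59 members tested in both, 2 were higher in tumours in both kinds of tissue, 7 were lower in both, 0 were called in opposite directions and 37 were called in neither. Of all 13044 genes tested in both, 8.59% were higher in both, 6.52% lower in both and 0.00767% called in opposite directions. The comparisons share 8 dogs, so these counts are not independent of each other. In fresh-frozen tissue 9 of the 62 tested members had tumours and controls that did not overlap, 2 with every tumour above every control and 7 with every tumour below. Among all genes tested there, 4.74% lay wholly above and 6.59% wholly below. In FFPE tissue 0 members separated fully, where the shares of all genes were 0.127% and 0.18%.

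Member 55 (ENSCAFG00000008401, 7940985 to 7983740, minus strand, 13 exons) had the largest difference of any member in either tissue. Its log2 CPM in fresh-frozen controls ran from 1.57 through a median of 2.00 to 3.36, and in fresh-frozen tumours from 3.83 through 4.78 to 5.49. In FFPE controls it ran from -2.43 (dog 50315, no count) through 1.24 to 3.12 (dog 60462), and in FFPE tumours from 2.72 through 4.03 to 4.97. All 6 fresh-frozen tumours and 10 of 11 FFPE tumours lay above every control of their kind; the exception was tumour 44331, which lay below control 60462. The log2 fold change was 2.70 ± 0.37 (SE, edgeR adjusted p = 0.000984) in fresh-frozen and 2.48 ± 0.44 (adjusted p = 0.00127) in FFPE tissue. On the scale per exon length it went from 2.65 ± 1.51 CPM per kb (SD, n = 6) in fresh-frozen controls to 15.6 ± 5.47 (n = 6) in tumours, which moved it from among the weaker members to the middle of the range.

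Member 21 (ENSCAFG00000043083, 6284535 to 6293591, plus strand, 5 exons) was the other gene higher in both. Its log2 CPM was 2.34, 2.77 and 3.01 (lowest, median, highest) in fresh-frozen controls and 3.13, 3.94 and 4.17 in fresh-frozen tumours, with no overlap. In FFPE tissue it was 2.11, 3.77 and 4.84 in controls and 3.66, 4.49 and 6.01 in tumours. There the groups overlapped, and 4 of 11 tumours lay above every control. The log2 fold change was 1.26 ± 0.24 (adjusted p = 0.00367) in fresh-frozen and 1.00 ± 0.35 (adjusted p = 0.0454) in FFPE tissue. The FFPE call of member 21 was lost when any 1 of 11 of the 21 libraries was left out, with an adjusted p of up to 0.0987.

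**Figure D3:**
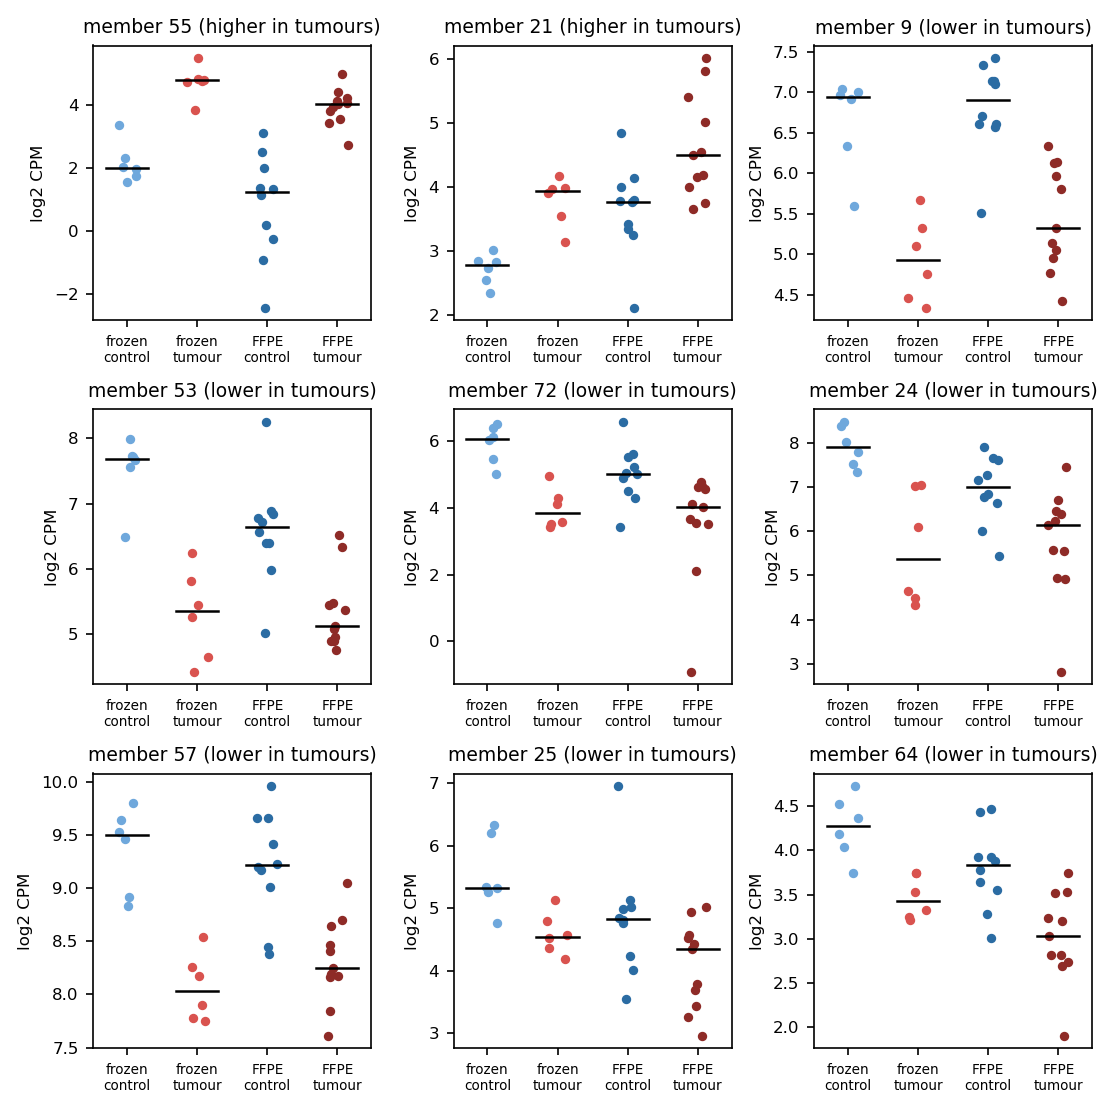
Log2 CPM of the 9 members called in the same direction in both tumour comparisons, with 1 point per library and a bar at the group median. Fresh-frozen tumours and controls are apart for 7 of the 9, while FFPE groups overlap for all of them.

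The 7 genes lower in tumours in both kinds of tissue include the gene with the most counts in the stretch. Member 57 (8148236 to 8209388, plus strand) had log2 CPM of 8.83, 9.49 and 9.80 in fresh-frozen controls and 7.75, 8.03 and 8.54 in tumours, with every tumour below every control. In FFPE controls it was 8.38, 9.21 and 9.96, and in FFPE tumours 7.61, 8.25 and 9.05, with 6 of 11 tumours below every control. The log2 fold change was -1.17 ± 0.22 (SE, adjusted p = 0.00367) in fresh-frozen and -0.97 ± 0.20 (adjusted p = 0.00278) in FFPE tissue. Per kb this was 141 ± 36.1 CPM in fresh-frozen controls and 56.8 ± 12.8 in tumours (SD, n = 6 each). The members' summed share of all counts was 0.344 to 0.380% in fresh-frozen controls and 0.300 to 0.333% in fresh-frozen tumours, without overlap, and with member 57 left out the ranges overlapped (0.283 to 0.327% and 0.269 to 0.306%). In FFPE tissue the summed share overlapped widely, at 0.183 to 0.387% in controls and 0.212 to 0.355% in tumours. Its FFPE mean without member 57 was 0.220% in controls and 0.230% in tumours.

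Member 53 (ENSCAFG00000008330, 7847466 to 7893410, plus strand, 17 exons) had the largest fresh-frozen decrease of any member. The log2 CPM was 6.48, 7.69 and 7.99 in fresh-frozen controls and 4.42, 5.35 and 6.24 in tumours. FFPE controls stood at 5.01, 6.63 and 8.25, and FFPE tumours at 4.76, 5.13 and 6.52. The fresh-frozen groups were apart, and all 11 FFPE tumours lay below the control median although the groups overlapped. Its log2 fold change was -2.03 ± 0.32 (adjusted p = 0.00154) in fresh-frozen and -1.35 ± 0.27 (adjusted p = 0.00254) in FFPE tissue.

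Member 9 (ENSCAFG00000006996, 5742833 to 5773962, plus strand, 6 exons) showed decreases of like size in both tissues. In fresh-frozen controls its log2 CPM was 5.60, 6.94 and 7.04, against 4.34, 4.93 and 5.67 in tumours. FFPE controls had 5.51, 6.90 and 7.42, and FFPE tumours 4.43, 5.32 and 6.33. Apart from control 60516 in fresh-frozen tissue and control 60462 in FFPE tissue, which lay among the tumours, the controls were above every tumour. The log2 fold change was -1.57 ± 0.28 (adjusted p = 0.00275) in fresh-frozen and -1.37 ± 0.24 (adjusted p = 0.00127) in FFPE tissue.

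Member 72 (8730435 to 8993205, plus strand, 23 exons), the last and longest gene of the stretch, had log2 CPM of 5.01, 6.08 and 6.52 in fresh-frozen controls and 3.43, 3.85 and 4.96 in tumours. In FFPE tissue the controls had 3.44, 5.03 and 6.57, and the tumours -0.91 (dog 50416), 4.02 and 4.77. Every fresh-frozen tumour lay below every control, and every FFPE tumour below the control median. Its log2 fold change was -1.79 ± 0.32 (adjusted p = 0.00275) in fresh-frozen and -1.28 ± 0.39 (adjusted p = 0.0222) in FFPE tissue. Member 64 (8349453 to 8383617, minus strand, 6 exons) showed the smallest fresh-frozen decrease of the 7. In fresh-frozen controls its log2 CPM was 3.75, 4.28 and 4.73, and it was 3.21, 3.43 and 3.74 in tumours. In FFPE tissue it was 3.01, 3.83 and 4.47 in controls and 1.90, 3.03 and 3.74 in tumours. The log2 fold change was -0.69 ± 0.21 (adjusted p = 0.0271) and -0.81 ± 0.25 (adjusted p = 0.0225). The fresh-frozen call of member 64 was lost when any 1 of 3 libraries was left out (adjusted p up to 0.0705), and its FFPE call without control 60460 (adjusted p = 0.053).

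The 2 remaining genes, members 24 and 25, lie next to each other from 6487777 to 6525123 on opposite strands. Member 24 (plus strand, 28 exons) had log2 CPM of 7.35, 7.91 and 8.47 in fresh-frozen controls and 4.32, 5.37 and 7.04 in tumours, and in FFPE tissue 5.45, 7.00 and 7.90 in controls and 2.82, 6.14 and 7.46 in tumours. The fresh-frozen tumours were split: dogs 60631, 60749 and 60461 stood at 4.32 to 4.65, dog 60127 at 6.09, and dogs 60679 and 60636 at 7.03 and 7.04. Its log2 fold change was -1.81 ± 0.48 (adjusted p = 0.0152) in fresh-frozen and -1.01 ± 0.36 (adjusted p = 0.0462) in FFPE tissue, and the FFPE call was lost when any 1 of 15 of the 21 libraries was left out (adjusted p up to 0.0881).

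Member 25 (minus strand, 8 exons) had log2 CPM of 4.76, 5.33 and 6.34 in fresh-frozen controls and 4.19, 4.55 and 5.14 in tumours. FFPE controls had 3.55, 4.84 and 6.96 (dog 60126), and FFPE tumours 2.96, 4.35 and 5.03. Here the groups overlapped in both tissues. Its log2 fold change was -0.87 ± 0.27 (adjusted p = 0.0275) in fresh-frozen and -0.92 ± 0.31 (adjusted p = 0.0372) in FFPE tissue. Without FFPE control 60126, the deepest library, the FFPE value became -0.55 (adjusted p = 0.128), and without fresh-frozen control 60126 the fresh-frozen value became -0.69 (adjusted p = 0.0636). In all, the FFPE call was lost without any 1 of 9 libraries and the fresh-frozen call without any 1 of 4.

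Not all genes around these 2 passed the tests. Member 26 (6526304 to 6530286, minus strand), 1.2 kb from member 25, had log2 fold changes of -0.04 ± 0.34 in fresh-frozen and -0.21 ± 0.37 in FFPE tissue and passed neither test (adjusted p = 0.933 and 0.713). Member 27 (6544796 to 6576237, plus strand, 12 exons), 14.5 kb further on, fell by 2.00 in fresh-frozen tissue (SE 0.58, adjusted p = 0.0213). Its log2 CPM was 3.60, 4.48 and 5.31 in controls and 0.14, 2.18 and 3.61 in tumours, and the 3 lowest tumours were dogs 60631, 60749 and 60461, as for member 24. In FFPE tissue its log2 fold change was -1.11 ± 0.43 (adjusted p = 0.0643). There members 24 and 27 also shared their lowest 3 tumours, dogs 50416, 51234 and 60749, of which only 60749 was among the lowest 3 in fresh-frozen tissue. The FFPE library of dog 60461 stood at 6.24 for member 24 and 3.02 for member 27, above the FFPE tumour medians of 6.14 and 2.5. The fresh-frozen call of member 27 was lost without dog 60461 (adjusted p = 0.0505). The FFPE value passed the threshold without control 50315 (adjusted p = 0.0487) or tumour 44331 (adjusted p = 0.0143).

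The members with the largest fresh-frozen increase and decrease also lie close together. Members 53 and 55 are 47.6 kb apart on opposite strands, and between them lies member 54 (7898015 to 7914234, minus strand, 12 exons). Member 54 passed neither test, with log2 fold changes of 0.27 ± 0.29 (adjusted p = 0.499) in fresh-frozen and 0.19 ± 0.29 (adjusted p = 0.668) in FFPE tissue.

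Further genes were called in 1 kind of tissue. In fresh-frozen tissue 5 more members were higher and 6 more lower, and in FFPE tissue 2 more were higher and 0 more lower. More genes of the whole table were also called in fresh-frozen (30.5%) than in FFPE tissue (21.1%). The share of all genes called in 1 tissue alone was not computed, so these counts are not read as a trait of the members. A call in 1 tissue and not in the other does not show that the tissues differ, and the test of that difference is given further below.

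Member 32 (6777383 to 6865016, minus strand, 64 exons) has the most exons in the stretch and was among its weakest tested genes, at 0.348 ± 0.238 CPM per kb in fresh-frozen controls and 1.24 ± 0.82 in tumours (SD, n = 6 each). Its log2 CPM was 0.29, 1.14 and 2.61 in fresh-frozen controls and 0.98, 3.21 and 4.23 in tumours, and 4 of 6 tumours lay above every control. This gave a log2 fold change of 1.97 ± 0.57 (adjusted p = 0.0217). The call was lost when either of 2 libraries was left out (adjusted p up to 0.0606). In FFPE tissue its log2 CPM was -0.91, 1.25 and 4.75 (dog 60462) in controls and 1.17, 3.0 and 5.85 (dog 50416) in tumours, with a log2 fold change of 1.25 ± 0.68 (adjusted p = 0.186). The highest library of each FFPE group set this value: it was 2.45 (adjusted p = 0.00663) without control 60462 and 0.53 (adjusted p = 0.56) without tumour 50416.

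Member 46 (7477766 to 7491160, plus strand, 6 exons) was lower in fresh-frozen tumours, with log2 CPM of 3.84, 4.89 and 5.80 in controls and 1.92, 2.95 and 3.87 in tumours. It fell by 1.86 (SE 0.39, adjusted p = 0.00551). In FFPE tissue it had 1.00 (dog 60462), 4.23 and 4.95 in controls and 2.60, 3.18 and 4.43 in tumours, with a log2 fold change of -0.73 ± 0.33 (adjusted p = 0.111, and 0.0314 without control 60462). It shares 78 exon bases on opposite strands with member 47 (7490945 to 7535958), whose fresh-frozen log2 fold change was -0.34 ± 0.24 (adjusted p = 0.282).

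Member 51 (7744924 to 7767892, minus strand, 9 exons) had log2 CPM of 4.30, 5.27 and 5.69 in fresh-frozen controls and 2.98, 3.78 and 4.13 in tumours, with no overlap. It fell by 1.39 (SE 0.26, adjusted p = 0.00338). FFPE controls had -2.43 (dog 50315, no count), 4.48 and 5.95, and FFPE tumours 1.97, 3.48 and 4.88. The FFPE log2 fold change was -0.96 ± 0.36 (adjusted p = 0.0554). It passed the threshold without control 50315 (adjusted p = 0.0174), without tumour 44331 (adjusted p = 0.0391) or without tumour 60127 (adjusted p = 0.0294).

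Member 4 (5049407 to 5121468, plus strand, 15 exons) was higher in FFPE tumours. Its log2 CPM was 2.90 (dog 60462), 4.66 and 5.41 in FFPE controls and 4.68, 5.77 and 6.76 in FFPE tumours, and 8 of 11 tumours lay above every control. Member 4 rose by a log2 fold change of 1.06 ± 0.26 (adjusted p = 0.00765). In fresh-frozen tissue the values were 4.59, 5.46 and 5.97 in controls and 5.03, 5.69 and 6.79 in tumours, and the difference of 0.63 ± 0.33 did not pass (adjusted p = 0.158). The remaining 8 members called in 1 tissue had smaller differences: log2 fold changes of 0.56 to 0.88 for 4 higher and of -0.74 to -0.53 for 3 lower in fresh-frozen tissue, and of 0.67 for member 58 (8223616 to 8247976), higher in FFPE tissue.

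Several FFPE calls depended on which dogs were compared. The FFPE tumour dogs with a stated age were older than the controls (4.7 to 12 against 2 to 8 years). With age as a covariate in the 14 FFPE libraries with a stated age, edgeR called 0 of 59 members, beside 0.737% of all 13977 genes tested. At an unadjusted p under 0.05 there were 8 of the 59 members, beside 2203 of the 13977 genes. The same libraries without the covariate gave 1 higher and 2 lower member, beside 4.39% of all genes called. Age and tumour cannot be fully told apart in these dogs. Without FFPE tumour 51234, control 47198 or control 50276 the FFPE count went from 11 to 7. Calls over all genes fell too, from 1342 higher and 1477 lower to 1052 and 1162, 1047 and 1092, and 1070 and 1115, in that order.

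A comparison with no dog in common was made with the FFPE libraries of the 6 tumour and 7 control dogs that had no fresh-frozen library. Of the 7 members higher in fresh-frozen tumours, 7 had a positive FFPE log2 fold change in these other dogs, and 2 passed the test there. Of all 2410 genes higher in fresh-frozen tumours and tested in these dogs, 96.3% were positive and 19.2% passed. The 2 members were member 55 with 2.90 ± 0.57 (SE, adjusted p = 0.0115) and member 32 with 2.86 ± 0.71 (adjusted p = 0.0226). For member 32, these dogs leave out control 60462, its highest FFPE control, and keep tumour 50416, its highest FFPE tumour. With all other FFPE libraries kept, its log2 fold change was 2.45 without that control and 0.53 without that tumour. Whether member 32 passes in these dogs without tumour 50416 was not tested. Of the 13 members lower in fresh-frozen tumours, 12 were negative in the other dogs and 3 passed, where 96.1% of all 1604 such genes were negative and 26.7% passed. The 3 members were member 9 at -1.52 ± 0.28 (adjusted p = 0.0102), member 53 at -1.16 ± 0.31 (adjusted p = 0.0304) and member 57 at -0.87 ± 0.26 (adjusted p = 0.0478). The exception in sign was member 60 (8279499 to 8291238), at 0.18 ± 0.32 (adjusted p = 0.736). Over all 59 members tested in both, 45 had the same sign, as did 81.3% of all 12765 genes, so the members' agreement was near that of other genes.

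**Figure D4:**
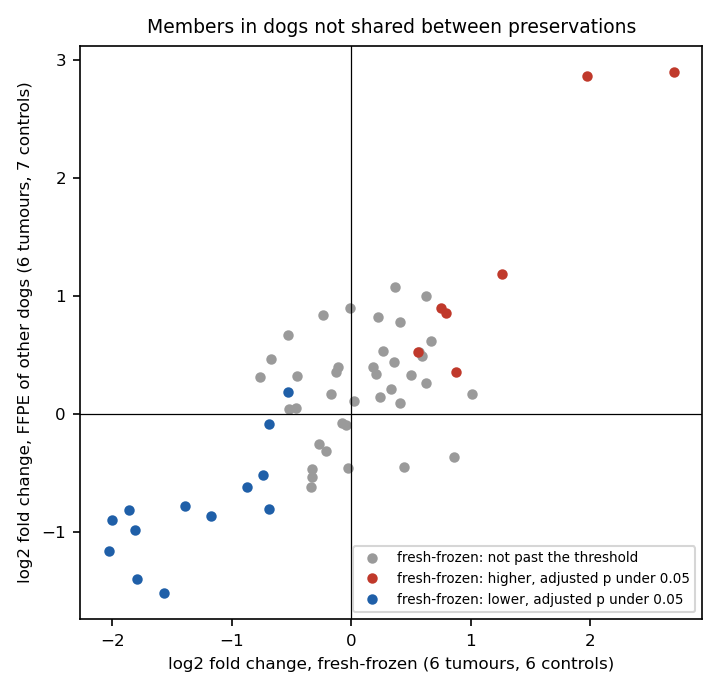
Log2 fold change, tumour over control, of the 59 members tested in both: fresh-frozen tissue (horizontal, 6 tumours and 6 controls) against FFPE tissue of dogs with no fresh-frozen library (vertical, 6 tumours and 7 controls). Each point is a gene, coloured by its fresh-frozen call; 7 of 7 higher and 12 of 13 lower genes lie on the same side of 0 on both axes.

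Whether the tumour difference itself depended on preservation was tested as an interaction over all 33 libraries. By edgeR 0 of 61 members passed (0% of all 15714 genes). At an unadjusted p under 0.05 there was 1 member, beside 575 of the 15714 genes. DESeq2 called 0 members, beside 0 higher and 7 lower of all genes. The member with the smallest p was member 46, whose decrease in tumours was smaller in FFPE (-0.73) than in fresh-frozen tissue (-1.86). The interaction fit put this difference at 1.22 ± 0.52 (SE, unadjusted p = 0.0254, adjusted p = 1). The median absolute difference of the members was 0.29 with a median SE of 0.43. In simulated data for this test, 36.4% of 4-fold and 5% of 2-fold differences were recovered, so differences of this size could have been missed.

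FFPE and fresh-frozen libraries of the same 8 dogs were then compared with tissue as a covariate. Among all 17097 genes tested 2.95% were called, and among the 15296 multi-exon genes under 500 kb 0.935%. Of 63 members tested, 1 was higher and 0 lower in FFPE (1.59%). That gene, chosen after its values were seen, was member 62 (8301699 to 8309364, minus strand, 6 exons), with a log2 fold difference of 1.28 ± 0.33 (SE, adjusted p = 0.0444). It was higher in the FFPE library in 6 of 8 dogs, and the difference per dog ran from -0.75 (dog 60749) through a median of 1.45 to 2.37 (dog 60679). With the dog as a block, which pairs the libraries of an animal, its value was 1.23 ± 0.33 (adjusted p = 0.0561) and 0 members were called. The call was also lost when any 1 of 6 of the 8 dogs was left out, the exceptions being dogs 60126 and 60749. Member 62 did not pass the tumour test in either tissue (adjusted p = 0.647 and 0.36).

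The breed comparisons bear on the short-nosed breeds in which the susceptibility locus was reported. In fresh-frozen tissue the 6 Boxers and French Bulldogs were compared with the 6 dogs of other breeds, with tumour or control state in the fit. By edgeR 0 of 62 members passed (0% of all 16103 genes). At an unadjusted p under 0.05 there were 0 members, beside 139 of the 16103 genes. DESeq2 called 0 members, beside 0 higher and 1 lower of all genes. Log2 fold differences ran from -0.67 ± 0.59 (SE) for member 32 to 0.58 ± 0.42 for member 10 (5866925 to 5896185, minus strand, 15 exons), with a median absolute value of 0.12 and a median SE of 0.29. Only these 2 members differed by 0.5 or more. The test recovered 42.4% of 4-fold and 7.07% of 2-fold differences in simulated data, so smaller breed differences were not detectable with these dogs. The same dogs' tumour differences were far larger for several members: member 55, at 2.70 between tumour and control, differed by -0.10 ± 0.40 between the breed classes.

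Boxers and French Bulldogs were compared in FFPE tissue (8 against 11 dogs), again with tumour state in the fit. By edgeR 0 of 59 members passed (0% of all 14107 genes). DESeq2 called 0 members, beside 6 higher and 0 lower of all genes. Beside 604 of the 14107 genes, 1 member had an unadjusted p under 0.05 by edgeR. That gene was member 42 (7308902 to 7375376, minus strand, 21 exons), lower in Boxers by a log2 difference of -0.91 ± 0.35 (unadjusted p = 0.017, adjusted p = 1). At the other end stood member 49 (7584880 to 7599401, 4 exons) with 0.92 ± 0.47. The median absolute difference was 0.12 with a median SE of 0.30. In simulated data this test recovered 80.8% of 4-fold and 16.3% of 2-fold differences.

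**Figure D5:**
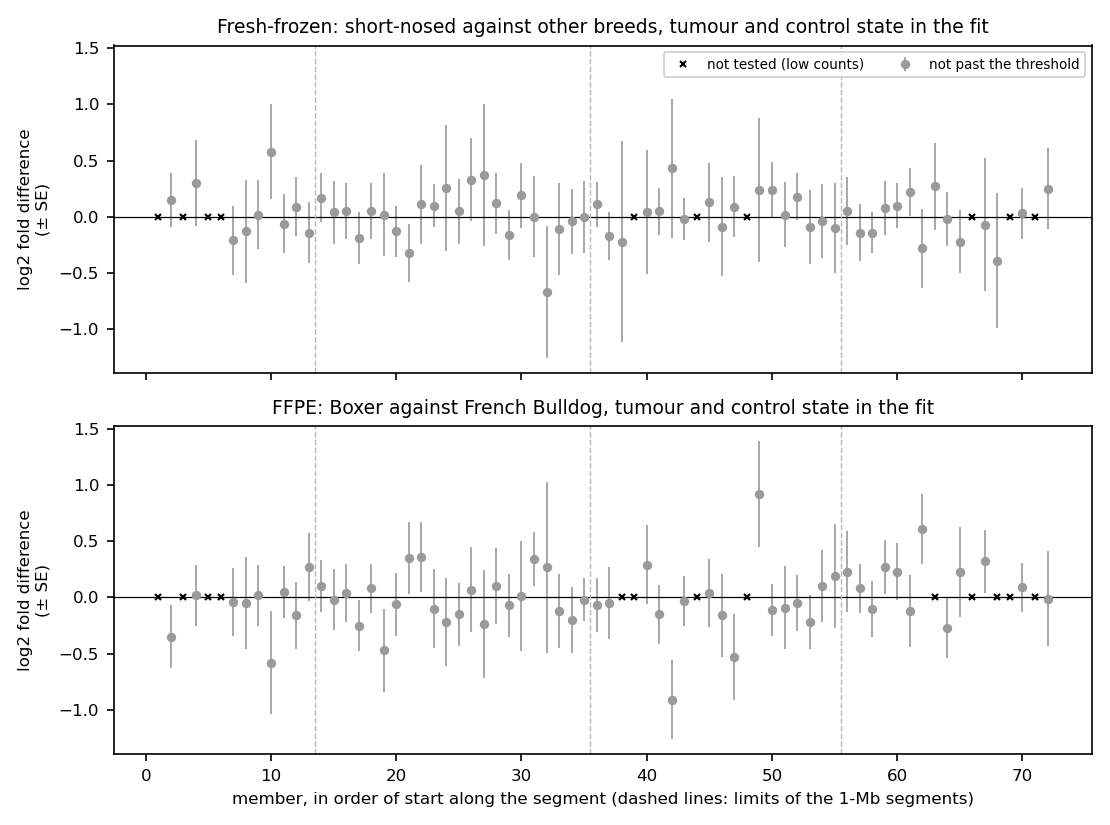
Log2 fold difference of each member between breeds (points, with SE as bars): Boxers and French Bulldogs against other breeds in fresh-frozen tissue (upper panel, positive where short-nosed dogs are higher) and Boxers against French Bulldogs in FFPE tissue (lower panel, positive where Boxers are higher). No point passed the test; most lie within 0.5 of 0, except 2 members in the upper and 5 in the lower panel.

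The 10 members tested in neither tumour comparison had at most 81 counts each over all 33 libraries, so no difference between tumour and control could be measured for them at this depth. Another 3 members were tested in fresh-frozen tissue alone and did not pass.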

How the data were processed

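Gene counts came from 33 RNA sequencing libraries of canine oligodendroglioma and control brain. The kit kept strand and added molecular identifiers of 12 nt to total RNA, per the labels' protocols. No source used here says if these identifiers were used to remove copies, so the counts may hold amplified copies. The deposited values are raw counts of fragments per gene, made by the authors with featureCounts 1.6.0 (strand option 1, mapping quality of at least 10, Ensembl release 100 models of CanFam3.1), per the file headers. Per the submitters' processing notes, fastp and STAR were used, with versions not given in the sources used here. Fragments mapping to several places or genes were not counted under these options, so members with near-identical copies elsewhere can be undercounted. The exonic length of each gene, used as deposited, set the scale per kb.

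The tests were edgeR 4.0.16 quasi-likelihood F tests (R 4.3.3; robust option, TMM scaling, filterByExpr), each fit on all genes with Benjamini-Hochberg adjustment at 0.05. Log2 CPM used a prior count of 2 and TMM scaling over all 33 libraries. FFPE and fresh-frozen tissue were fitted separately. The tests were checked on simulated counts with 200 genes changed. DESeq2 1.42.0, limma 3.58.1 voom, other filters and scaling, covariates, subsets of dogs and leaving out each library were the alternatives. Replicates are different dogs, named by number in the labels, so libraries with the same number are paired by animal. Their deviations from the group means correlated by 0.066 to 0.796 over 12000 genes, above 0.1 in 7 of 8 dogs. Among the shared dogs of the same tissue, the best match was the dog's own fresh-frozen library in 7 of 8. The exception was tumour dog 60461, whose own correlation was 0.123.

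The members, lists and tests were chosen with earlier results of these data known. Genes named in the text were those called in the same direction in both tumour comparisons, the 3 with the highest level per kb, and those called in 1 tumour comparison with an absolute log2 fold change of at least 1. Neighbours of these genes, the extremes of the breed, preservation and interaction comparisons and members 58 and 60 were named after their values were seen. At most 2 identifiers are printed in each direction because identifiers could not be paired with names. The planned lists of gene symbols and cell type markers could not be used for that reason.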

Additional observations from a re-analysis of the deposited data

Results flagged for a closer look

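Within-group gaps were tested for the 16 members named by the rule and for the members' summed share of counts, each in the 3 groups of 4 to 10 dogs. Of these 51 sets of values, 6 had a library far from the others, all of them single members. Chance alone flags about 1 in 20, which is 2.5 of 51. The value given is the gap to the nearest library divided by the range of the group. In FFPE controls, dog 60462 was lowest for member 9 (5742833), at 5.51 log2 CPM with the next library at 6.57 (value 0.552), and lowest for member 4 (5049407), at 2.90 with the next at 4.21 (value 0.523). The FFPE library of dog 60462 had 1596967 counts, of which 40.3% were mitochondrial, the highest share of the 33 libraries. Despite its low depth it had counts for 26124 genes, where the other FFPE libraries had counts for at most 23246. The fresh-frozen library of the same dog likewise had counts for 26373 genes, where the other fresh-frozen libraries had at most 21486. The FFPE library of dog 60462 was also the highest FFPE control for members 55 and 32. The part of the mitochondrial share or of the many genes detected in these values was not tested. In the same group dog 60126, the deepest library, was highest for member 25 (6523070), at 6.96 with the next at 5.14 (value 0.535). Dog 50315, the shallowest library with 406406 counts, was lowest for member 51 (7744924), with 0 counts and -2.43 log2 CPM against 4.01 for the next library (value 0.768). In fresh-frozen controls, dog 60516, the Mongrel, was lowest for member 53 (7847466), at 6.48 with the next at 7.56 (value 0.718), and for member 51, at 4.30 with the next at 5.22 (value 0.662). This dog was also the highest fresh-frozen control for members 55 and 32.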

How the results depend on the processing

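The count of members called moved by over 1.5 times under some alternatives, and the cause was not tested except where fewer libraries or genes were used by construction. In FFPE tissue 11 members became 7 with no filter on low counts, 6 without grade II tumours, 6 without the 8 dogs that also have a fresh-frozen library, 3 in libraries with a stated age and no covariate (an alternative chosen after seeing the data) and 0 with age as a covariate. Higher and lower FFPE calls over all genes also both fell without grade II tumours, without the 8 dogs and in libraries with a stated age. With no filter both rose, among more genes tested. The fall in members was therefore shared with other genes in these alternatives, except with no filter. In fresh-frozen tissue 20 became 12 without dogs 60126, 60127, 60461 and 60462. Over all genes, that step went from 2760 higher and 1837 lower of 15057 to 1321 and 970 of 15106. These dogs have the deepest fresh-frozen libraries, with 24458306 to 26726025 counts, where the others have at most 19433146. Between preservations 1 became 4 with DESeq2 and 0 with no filter, 0 with a mean of at least 50 counts and 0 with the dog as a replicate block. Over all genes, the higher and lower calls went from 481 and 23 to 1023 and 112 with DESeq2. They were 441 and 13 with no filter, 117 and 2 with the mean of 50, and 571 and 84 with the block. Leaving out 1 library at a time gave 7 to 14 members in FFPE and 14 to 23 in fresh-frozen tissue, and leaving out 1 dog gave 0 to 2 between preservations. Over all genes, these FFPE fits gave 1047 to 1606 higher and 1092 to 1807 lower. The fresh-frozen fits gave 1941 to 2944 higher and 1145 to 2335 lower, and those between preservations 165 to 729 higher and 0 to 84 lower. Both breed comparisons stayed at 0 members in every alternative run, leave-one-out included (0 to 0). The interaction stayed at 0 members, also with limma voom with the dog as a replicate block (0) or without it (0, chosen after seeing the data). No named gene changed sign while called. The block changed no other call. With another scaling the members' median went from -0.04 to 0.01 in FFPE and to -0.12 in fresh-frozen tissue. The median over all genes went from 0.016 to 0.052 in FFPE and from 0.097 to 0.008 in fresh-frozen tissue. The sign of the members' FFPE median depended on the scaling and on the dogs used. That median was 0.18 without the 8 dogs that also have a fresh-frozen library, and -0.07 to 0.06 with 1 library left out. Depth limits the low members most: the shallowest FFPE library needs 7.38 CPM for 3 counts.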
